A study of Mus musculus with 8 samples.

Results

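The genes described here are 10 genes whose RNA is abundant in fat cells: Adipoq, Plin1, Plin4, Cfd, Cidec, Lep, Retn, Car3, Fabp4 and Lipe. They were taken from the deposited gene table by an exact match of the gene name, and all 10 were found among its 33249 genes. Poly(A) RNA of mouse myocardium was sequenced in 8 libraries, 2 for each of the sham groups fl/fl-Sham and CKO-Sham and 2 for each of the infarct groups fl/fl-MI and CKO-MI. CKO marks Piezo1 Cko mice, in which floxed Piezo1 is meant to be deleted in cardiomyocytes by a tamoxifen-inducible Cre under the Myh6 promoter, and fl/fl marks Piezo1 fl/fl littermates without Cre. Tamoxifen was given at 4 weeks of age and surgery was done at 8 weeks, either permanent ligation of the left anterior descending artery (MI) or the operation without ligation (sham). The MI hearts were taken at day 42, while the labels of the sham hearts give no day. The labels do not say which region of the myocardium was sampled or whether the 2 libraries of a group came from separate mice, so the p-values measure only the spread between these samples.

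White adipocytes store triglyceride in a single large lipid droplet coated by perilipins, release it as fatty acids through a chain of lipases, and secrete hormones such as adiponectin and leptin into the blood. In the mouse heart, adipocytes lie mainly in small deposits around the base of the ventricles and along the atrioventricular groove, on the outer surface next to the mesothelium. Several of these genes are also used outside fat: Fabp4 is strongly expressed by capillary endothelium, and Plin4, Lipe and Lep have been found in cardiac muscle. In bulk tissue, fewer cells of a type and less RNA per cell cannot be told apart.

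The labels were checked before the genes were compared. Levels are given as CPM, a gene's count divided by the library's total and put on a common scale with the TMM method of edgeR. Piezo1 was at 72.2 and 82.0 CPM for fl/fl-Sham, 76.7 and 88.3 for CKO-Sham, 53.5 and 64.8 for fl/fl-MI, and 56.3 and 64.6 for CKO-MI. Piezo1 was therefore not lower in either pair of libraries labelled CKO (log2 differences of 0.10 in sham and 0.03 after MI, both with SE 0.16), though the counts cover every exon and every cell type. Esr1, whose hormone-binding part flanks Cre in this transgene, had 5.52 to 8.36 CPM in all 4 sham libraries and 7.75 CPM in fl/fl-MI 1. Its level was 331 CPM in fl/fl-MI 2, against 707 and 402 CPM in the CKO-MI pair. The library labelled fl/fl-MI 2 thus had Esr1 on the side of the CKO-MI libraries, and both CKO-Sham libraries had it on the side of the fl/fl libraries. Labels are used below as deposited, every direction between genotypes rests on them, and the counts of calls and the medians of the 10 genes are given with and without fl/fl-MI 2 in each comparison that uses it. This library also stood apart in atrial genes: Bmp10 had 3834 CPM in fl/fl-MI 2 and 10.3 to 18.8 CPM in the other 7 libraries. The libraries held 73821747 to 88117573 counts each, of which mitochondrial transcripts made up 43.1% to 46.4% in sham and 19.9% to 24.2% after MI.

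All 10 genes passed the filter for testing, a mean of at least 0.5 FPKM (the authors' value, scaled to gene length and library size), as did 14028 genes in all. By mean FPKM over the 8 libraries, Fabp4 stood first with 139, followed by Car3 with 35.7, Plin4 with 32.2 and Cfd with 30.4. Lipe (12.01 FPKM), Adipoq (11.7) and Cidec (10.02) formed a middle group, and Retn (2.16), Lep (1.97) and Plin1 (1.92) were the lowest. Fabp4 ranked first among the 10 in 7 libraries. In fl/fl-MI 2 it was passed by Cfd with 115 FPKM and Car3 with 81.3 FPKM, at 67.4 FPKM itself.

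Promoters are shown for 4 genes whose levels are contrasted below: Plin1 and Retn, which varied together across libraries, Cfd, which had the widest range, and Lep, which followed neither. Each sequence runs from 250 bases before to 50 bases after a RefSeq start (build GRCm38.p6), 5′ to 3′ on the gene's strand, and capitals mark the letters TTGCNNAA, the core of sites bound by C/EBP factors of adipocyte differentiation.
Plin1, chr7:79732727-79733026, minus strand: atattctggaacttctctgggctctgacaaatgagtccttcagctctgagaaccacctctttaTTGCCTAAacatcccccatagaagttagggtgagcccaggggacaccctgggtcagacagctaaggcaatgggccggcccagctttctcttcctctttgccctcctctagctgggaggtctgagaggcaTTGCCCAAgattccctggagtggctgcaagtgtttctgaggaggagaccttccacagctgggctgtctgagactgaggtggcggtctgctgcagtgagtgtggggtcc
Retn, chr8:3655520-3655819, plus strand: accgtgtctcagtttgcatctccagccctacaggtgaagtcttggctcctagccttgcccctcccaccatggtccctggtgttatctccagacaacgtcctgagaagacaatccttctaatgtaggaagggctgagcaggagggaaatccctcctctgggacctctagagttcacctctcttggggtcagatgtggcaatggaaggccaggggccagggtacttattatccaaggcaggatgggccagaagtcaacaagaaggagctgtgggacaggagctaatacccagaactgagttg
Cfd, chr10:79890603-79890902, plus strand: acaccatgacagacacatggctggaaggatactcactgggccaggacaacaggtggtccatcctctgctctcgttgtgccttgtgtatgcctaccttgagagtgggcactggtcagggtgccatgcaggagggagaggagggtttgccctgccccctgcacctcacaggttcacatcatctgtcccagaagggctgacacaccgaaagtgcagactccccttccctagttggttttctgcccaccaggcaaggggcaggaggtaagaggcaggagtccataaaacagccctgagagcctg
Lep, chr6:29059971-29060270, plus strand: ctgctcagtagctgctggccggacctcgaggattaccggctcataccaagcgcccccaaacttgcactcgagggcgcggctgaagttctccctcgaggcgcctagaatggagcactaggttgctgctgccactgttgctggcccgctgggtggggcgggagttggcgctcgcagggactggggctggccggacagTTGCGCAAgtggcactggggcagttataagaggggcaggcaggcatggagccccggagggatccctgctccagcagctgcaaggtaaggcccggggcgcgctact
Promoters were found for 8 of the 10 genes, with 2 starts each for Cidec and Lipe. On both strands, 3 motifs were searched, TTGCNNAA, AGGTCA (the half-site of nuclear receptors such as PPARG) and CACGTG (an E-box). TTGCNNAA was present in 3 of the 10 promoters of these 8 genes, each of a different gene, and in 10.8% of 32851 promoters of the same length. The Plin1 promoter held it at -187 and -58 from the start, Lep at -55 in a form that reads the same on both strands, and the downstream start of Cidec at -198. AGGTCA was present in 0 of the 10 promoters (16.3% of all promoters). CACGTG was present in 1 of the 10, the upstream promoter of Lipe, at -155 (7.15% of all promoters). These are matches of letters and not shown to be bound.

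Among the secreted proteins, Adipoq encodes adiponectin, the most abundant hormone of fat and specific to it. Adipoq (ENSMUSG00000022878, chromosome 16 of GRCm38 from 23146536 to 23158028) was measured at 17.6 and 17.5 CPM for fl/fl-Sham, 16.9 and 15.2 for CKO-Sham, 12.1 and 23.6 for fl/fl-MI, and 16.7 and 12.7 for CKO-MI. The sham libraries were close to each other, and the fl/fl-MI libraries were the lowest and the highest of all 8. Adipoq was read from 1 annotated transcript, and its log2 fold change of MI against sham over both genotypes was -0.05 (SE 0.22, adjusted p = 0.865, from edgeR with the Benjamini-Hochberg method). Adipoq was thus detected in every library.

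Cfd encodes adipsin, the complement protease factor D, secreted mainly by fat. Cfd (ENSMUSG00000061780, chromosome 10 from 79890853 to 79892655) was measured at 26.6 and 28.7 CPM for fl/fl-Sham, 7.34 and 8.09 for CKO-Sham, 13.7 and 97.8 for fl/fl-MI, and 10.1 and 26.4 for CKO-MI. It had the widest range of the 10 genes, 13.3-fold from lowest to highest, and the 2 CKO-Sham libraries were the lowest of all 8. The log2 fold change was -1.84 in CKO-Sham against fl/fl-Sham (SE 0.84, 95% interval -3.81 to 0.13). This value missed the limits for a call (unadjusted p = 0.0630, adjusted p = 0.9997 in edgeR). The call, an unadjusted p under 0.05 with at least 2-fold change, was met by 0.891% of all tested genes in this comparison. Cfd met it in edgeR, still at -1.84, when only the 4 sham libraries were fitted (1.68% of all tested genes). When fl/fl-MI 1 or fl/fl-MI 2 was left out, the value stayed at -1.84 with an SE of 0.38 or 0.39. The sham libraries were the same in those fits, and only the shared estimate of the spread changed. The ratio of Cfd to Adipoq within a library ranged from 0.434 in CKO-Sham 1 to 4.15 in fl/fl-MI 2, so these 2 adipokines did not vary in proportion.

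Lep encodes leptin, the satiety hormone of white fat. Lep (ENSMUSG00000059201, chromosome 6 from 29060220 to 29073877) was measured at 8.13 and 4.23 CPM for fl/fl-Sham, 8.51 and 10.7 for CKO-Sham, 6.50 and 6.43 for fl/fl-MI, and 6.21 and 4.80 for CKO-MI. Both CKO-Sham libraries were above the other 6, and fl/fl-MI 2 did not stand out. Neither genotype comparison was called, at log2 fold changes of 0.63 in sham (SE 0.33, adjusted p = 0.9997 in edgeR) and -0.23 after MI (SE 0.33, adjusted p = 0.889). The sham value was 1.18 without fl/fl-Sham 1, and it ran from 0.24 to 1.18 over the fits that each left out 1 library. CKO-MI against CKO-Sham gave a log2 fold change of -0.80 (SE 0.33, adjusted p = 0.121 in edgeR), under the 2-fold limit. Retn encodes resistin, a hormone of mouse adipocytes. Retn (ENSMUSG00000012705, chromosome 8 from 3655770 to 3660110) was measured at 3.63 and 3.50 CPM for fl/fl-Sham, 2.13 and 3.49 for CKO-Sham, 1.67 and 6.61 for fl/fl-MI, and 2.82 and 3.82 for CKO-MI. The lowest and the highest of the 8 libraries were again those of fl/fl-MI.

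Plin1, Plin4 and Cidec encode proteins of the lipid droplet surface. Plin1 encodes perilipin 1, which coats the adipocyte droplet and holds back lipolysis. Plin1 (ENSMUSG00000030546, chromosome 7 from 79720218 to 79732835) was measured at 8.27 and 10.2 CPM for fl/fl-Sham, 6.43 and 9.06 for CKO-Sham, 4.76 and 20.7 for fl/fl-MI, and 6.34 and 7.37 for CKO-MI. The library labelled fl/fl-MI 2 had 4.34 times the level of fl/fl-MI 1, and no other library was above 10.2 CPM. Transcript Plin1-206 took 90.3% to 96.3% of the counts of the gene. Cidec encodes a protein that fuses droplets into larger ones. Cidec (ENSMUSG00000030278, chromosome 6 from 113424634 to 113435760) was measured at 22.3 and 14.1 CPM for fl/fl-Sham, 17.4 and 18.4 for CKO-Sham, 10.03 and 36.5 for fl/fl-MI, and 16.3 and 17.1 for CKO-MI. Again only the fl/fl-MI libraries lay outside the range of the other groups.

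Plin4 encodes perilipin 4, which coats small nascent droplets and is also made in muscle. Plin4 (ENSMUSG00000002831, chromosome 17 from 56100591 to 56109803) was measured at 159 and 176 CPM for fl/fl-Sham, 130.2 and 146 for CKO-Sham, 168 and 382 for fl/fl-MI, and 278 and 169.7 for CKO-MI. Of the 4 sham libraries, 3 were below every MI library, and fl/fl-Sham 2 lay within the MI range. MI against sham over both genotypes gave a log2 fold change of 0.70 (SE 0.28, adjusted p = 0.0810 in edgeR), under the 2-fold limit, and an exact two-sided permutation test of 4 against 4 libraries gave p = 0.0857. Without fl/fl-MI 2 the log2 fold change was 0.35, and on the scale of log2(FPKM + 1) it was 1.15 and called by limma. On that scale the median of all genes was itself shifted by 0.41. Plin4 overlaps Hdgfl2 on the opposite strand, and without a statement that the counting used strand their reads cannot be told apart where they overlap.

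Lipe and Fabp4, which release and carry fatty acids, were the only 2 of the 10 genes called between MI and sham, and both were lower after MI in both genotypes (over both genotypes together, 16% of all tested genes were called). Lipe encodes hormone-sensitive lipase, which cleaves diacylglycerol in the droplet. Lipe (ENSMUSG00000003123, chromosome 7 from 25379527 to 25398710) was measured at 123 and 126 CPM for fl/fl-Sham, 111 and 104 for CKO-Sham, 30.1 and 59.2 for fl/fl-MI, and 38.1 and 41.5 for CKO-MI. The lowest sham library was above the highest MI library. Lipe fell by 1.48 on the log2 scale in fl/fl (SE 0.29, adjusted p = 0.0180 in edgeR) and by 1.43 in CKO (SE 0.29, adjusted p = 0.0164). Over both genotypes it was 2.74-fold lower (log2 fold change -1.46, SE 0.21, adjusted p = 0.00246 in edgeR), and an exact two-sided permutation test gave p = 0.0286, the smallest that 4 against 4 libraries allow. Without fl/fl-MI 2 the log2 fold change was -1.74. On the scale of log2(FPKM + 1) it was -0.85, which is under the 2-fold limit.

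The fall of Lipe lay mostly in 1 transcript. Lipe-208, which starts at 25389224 inside the gene, took 65.9% to 84.6% of the Lipe counts in sham and 49.3% to 75.6% after MI. It had 80.9, 107, 89.9 and 85.0 CPM in the 4 sham libraries and 15.6, 29.2, 28.8 and 25.9 CPM in the 4 MI libraries. The transcript Lipe-201, which starts at 25396379, had 9.67 to 29.3 CPM in sham and 6.35 to 18.8 CPM after MI, and the 2 ranges overlapped. Lipe-202, which starts at 25390106, had 4.95 to 10.6 CPM in sham and 1.35 to 10.2 CPM after MI, overlapping likewise. Transcripts of 1 gene share most exons, so how their reads were divided depends on the authors' estimate, and no test was made on them. Lipe also overlaps an antisense gene, 4732471J01Rik.

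Fabp4 encodes the fatty acid carrier of adipocytes, also called aP2. Fabp4 (ENSMUSG00000062515, chromosome 3 from 10204088 to 10208576) was measured at 835 and 1099 CPM for fl/fl-Sham, 1416 and 1113 for CKO-Sham, 282 and 279 for fl/fl-MI, and 379 and 269.7 for CKO-MI. The lowest sham library was above 2-fold the highest MI library. Fabp4 fell by 1.79 on the log2 scale in fl/fl (SE 0.25, adjusted p = 0.00728 in edgeR) and by 1.96 in CKO (SE 0.25, adjusted p = 0.00523). Over both genotypes it was 3.67-fold lower (log2 fold change -1.87, SE 0.18, adjusted p = 0.000747 in edgeR; exact two-sided permutation p = 0.0286, the smallest possible). The log2 fold change was -1.87 without fl/fl-MI 2 and -1.90 without fl/fl-MI 1. The spliced transcript Fabp4-201 took 65.8% to 78.0% of the counts, and the rest was assigned to Fabp4-202, an unspliced form that retains the introns.

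Most of the endothelial markers moved with Fabp4. The summed level of 8 of 8 tested markers (Pecam1, Cdh5, Kdr, Cldn5, Tie1, Emcn, Egfl7 and Gpihbp1) was 1751 to 1972 CPM in sham and 545 to 826 CPM after MI, with none at 0. In fl/fl 5 of the 8 were called lower and in CKO 7 of the 8, against 15.4% and 17% of all tested genes called in either direction. Cldn5 was called in neither, at -0.35 over both genotypes (SE 0.38, adjusted p = 0.486 in edgeR). Pecam1 (-0.76) and Emcn (-0.49) were not called in fl/fl. Egfl7, a secreted endothelial protein, was 4.02-fold lower over both genotypes (log2 fold change -2.01, SE 0.12), and the ratio of Fabp4 to Egfl7 CPM stayed between 3.92 and 5.40 in all 8 libraries. The ratio of Fabp4 to Pecam1 was less steady, 2.50 to 3.85 in sham and 1.08 to 2.07 after MI. Its ratio to Gpihbp1 was 5.83 to 7.42 in sham and 6.01 to 10.3 after MI. The part of endothelial cells in the Fabp4 result was not tested.

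**Figure D1:**
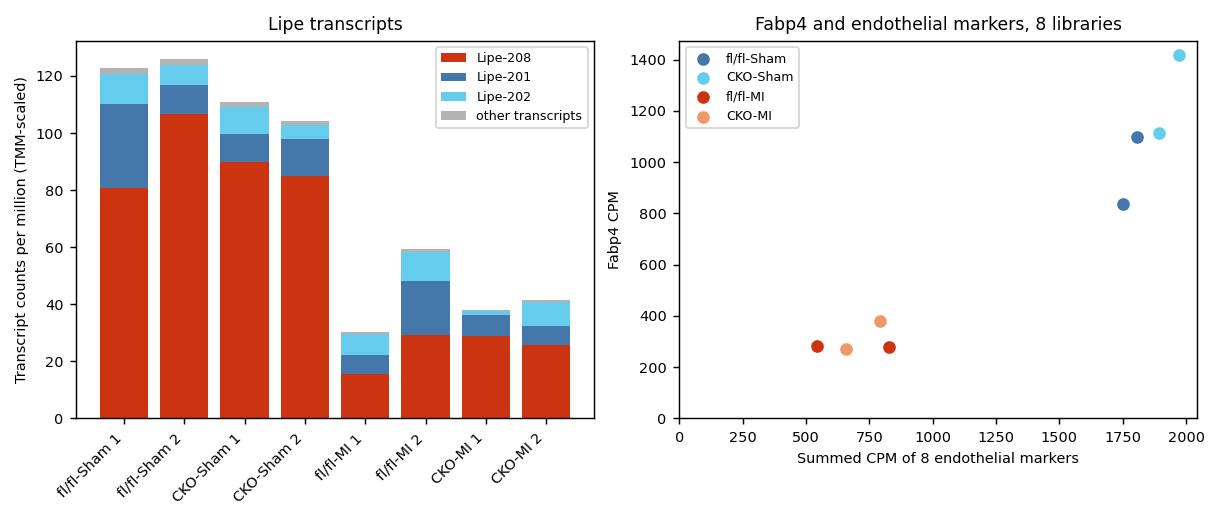
Left, stacked bars of TMM-scaled CPM of the Lipe transcripts in each library; right, CPM of Fabp4 against the summed CPM of 8 endothelial markers, 1 point per library, both axes from 0. Lipe-208 had 80.9 to 107 CPM in sham and 15.6 to 29.2 CPM after MI, and the 4 sham libraries lie apart from the 4 MI libraries on both axes of the right panel.

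Car3 encodes carbonic anhydrase 3, one of the most abundant cytosolic proteins of mouse adipocytes and also found in slow skeletal muscle. Car3 (ENSMUSG00000027559, chromosome 3 from 14863512 to 14872523) was measured at 105 and 115 CPM for fl/fl-Sham, 73.5 and 94.1 for CKO-Sham, 53.2 and 214 for fl/fl-MI, and 88.0 and 90.1 for CKO-MI. The 2 CKO-MI libraries lay within the sham range, while the fl/fl-MI libraries lay on either side of it. Its ratio to Plin1 stayed between 10.4 and 13.9 in all 8 libraries. The 7 skeletal muscle markers, all of fast fibres, were near 0, with a summed level of 1.34 to 11.2 CPM. They do not bear on slow muscle, whose part in the Car3 level was not tested.

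**Figure D2:**
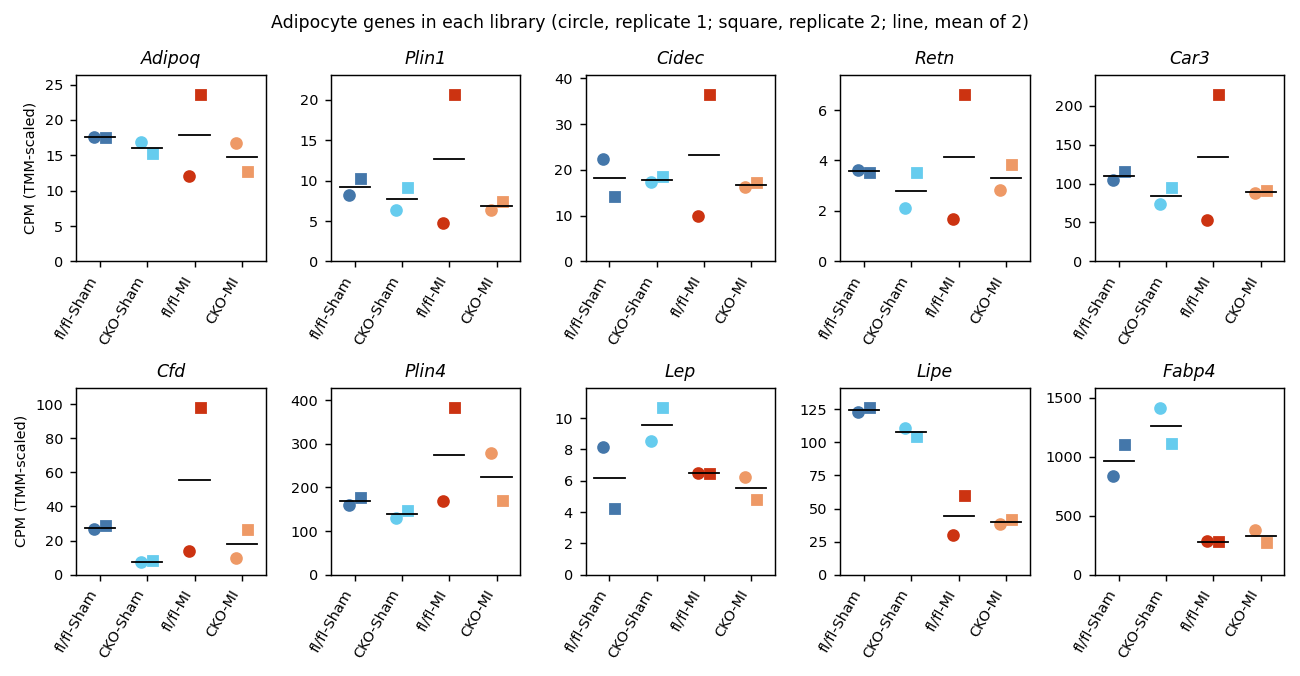
TMM-scaled CPM of each of the 10 genes (vertical axes, each from 0) in the 4 groups; circles are replicate 1, squares replicate 2 and lines the mean of 2. For Adipoq, Plin1, Cidec, Retn and Car3 the 2 fl/fl-MI libraries are the lowest and the highest of the 8, and for Lipe and Fabp4 all sham libraries are above all MI libraries.

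Across the libraries, fl/fl-MI 2 had the highest level of 7 of the 10 genes (19.9% of all tested genes were highest there) and fl/fl-MI 1 the lowest level of 6 (13.6% of all tested genes). Against the median of the other 7 libraries, fl/fl-MI 2 had 7.16 times the level of Cfd, 2.81 times that of Plin1, 2.38 times that of Car3, 2.27 times that of Plin4 and 2.13 times that of Cidec. Retn had 1.90 times and Adipoq 1.41 times that median, while Lep had 0.990, Lipe 0.569 and Fabp4 0.334 times. Of the 10 genes, 6 were at least 2-fold higher in fl/fl-MI 2 than in the other library of the group, against 8.30% of all tested genes. Summed mesothelial markers were 204 CPM in fl/fl-MI 2, 104 CPM in fl/fl-MI 1, 37.3 and 75.8 CPM in CKO-MI and 34.8 to 45.3 CPM in sham. Summed atrial markers were 20141 CPM in fl/fl-MI 2, 2548 to 4451 CPM in the other MI libraries and 136 to 598 CPM in sham. Outside fl/fl-MI 2 most of this sum was Nppa, with 2520 to 4419 CPM after MI and 106 to 504 CPM in sham. Each of the other atrial markers was at no more than 12.6 CPM in those MI libraries and at 284 CPM or more in fl/fl-MI 2. Summed cardiomyocyte markers were also highest in fl/fl-MI 2, at 35842 CPM, of which Myh6 alone gave 18609 CPM. The sums were 18281 CPM in fl/fl-MI 1, 33079 and 21358 CPM in CKO-MI and 29636 to 33300 CPM in sham. The single cardiomyocyte markers differed. Myh6 and Ryr2 were highest in fl/fl-MI 2, Myl2 was lowest there (801 CPM, against 1625 to 4227 CPM elsewhere), and the others were neither. The part of atrial, mesothelial or other tissue in these levels was not tested.

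**Figure D3:**
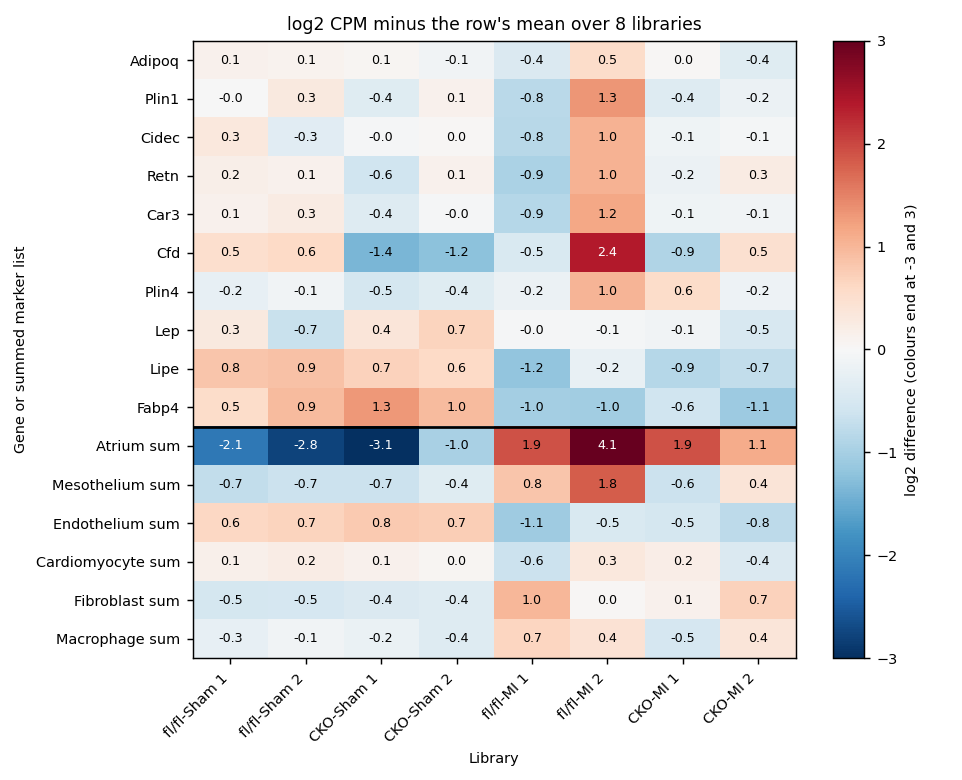
Heat map of log2 CPM of the 10 genes (above the line) and of 6 summed marker lists (below it), each minus its mean over 8 libraries, with libraries in columns and the value in each cell. The column fl/fl-MI 2 is the highest for 7 genes and for the atrial, mesothelial and cardiomyocyte sums. Myh6 (18609 CPM) is the largest part of the cardiomyocyte sum there.

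Pearson's r of log2 CPM between pairs of the 10 genes describes which varied together over the 8 libraries. It was 0.97 for Plin1 and Car3 (0.93 over the 7 libraries without fl/fl-MI 2), 0.96 for Retn and Car3 (0.91), 0.93 for Plin1 and Retn (0.84) and 0.90 for Fabp4 and Lipe (0.94). Plin1 and Fabp4 had an r of -0.06 (0.60). The points share groups and library scaling, and no p is given. Of all other tested genes, the 10 most like the mean standardised level of the adipocyte genes were Epha4 (r = 0.99), Gm49405, Camk2b, Mlxip, Palmd, Acy3, Gm25604, Mmp15, Kdm6bos and Gm43050 (r = 0.97), over 8 libraries. Gm25604 had 0.0283 to 0.169 CPM, near the level of 3 read pairs (0.113 to 0.205 CPM, depending on the library), so its r rests on a few reads. Every one of these was highest in fl/fl-MI 2, for example Epha4 with 88.0 CPM there.

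Whether the genotype labels went with a difference after MI was examined by comparing CKO-MI with fl/fl-MI. Of the 10 genes, 0 were called, against 3.21% of all tested genes, and 0 passed an adjusted p under 0.05, against 0% of all tested genes. Of the 10, 9 had a negative and 1 a positive log2 fold change, with a median of -0.31 against -0.01 for all tested genes. The largest in size was that of Cfd, -1.61 (SE 0.82, 95% interval -3.55 to 0.33, adjusted p = 0.655 in edgeR). Whatever the fold, 0 of the 10 had an unadjusted p under 0.05 in edgeR, in DESeq2 or in limma on log2(FPKM + 1). Plin1 had -0.89 (SE 0.59), Car3 -0.59 (SE 0.54), Cidec -0.48 (SE 0.53) and Fabp4 0.21 (SE 0.24), and none of these was called. Without fl/fl-MI 2, 9 of the 10 had a positive log2 fold change, with a median of 0.42 and 0 called (2.63% of all tested genes). Without fl/fl-MI 1, 9 of the 10 had a negative one, with a median of -0.86, and 4 were called lower, namely Car3, Cidec, Plin1 and Cfd (11.5% of all tested genes). The sign in CKO-MI against fl/fl-MI thus changed with the fl/fl-MI library left out for 8 of the 10 genes, all but Lep and Fabp4. In the same comparison 5 of 6 atrial markers (Myl7, Bmp10, Sln, Myl4 and Mybphl) and 3 of 6 mesothelial markers (Upk3b, Lrrn4 and Msln) were called lower with all libraries. Lrrn4 (-1.90) was the only one of these 8 still called without fl/fl-MI 2. Their part in the values of the adipocyte genes was not tested.

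**Figure D4:**
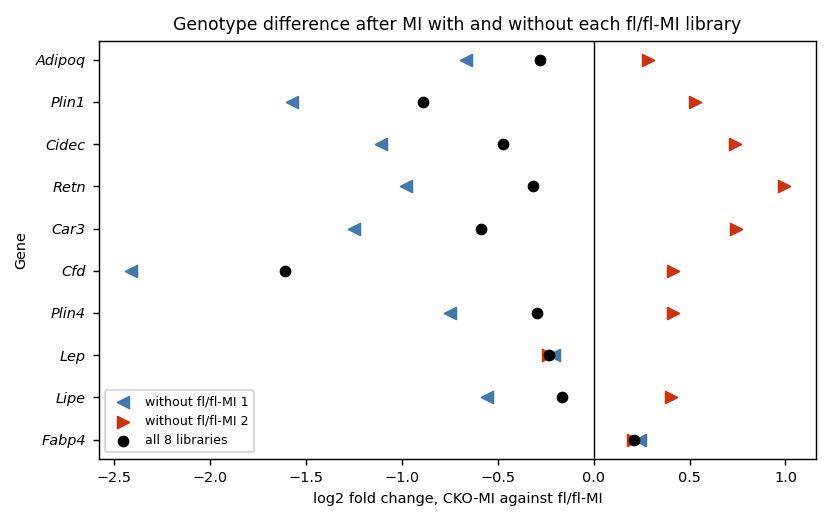
Log2 difference between CKO-MI and fl/fl-MI (horizontal axis) for each of the 10 genes with all 8 libraries (circles), without fl/fl-MI 1 (triangles to the left) and without fl/fl-MI 2 (triangles to the right). The median over the genes is -0.31, -0.86 and 0.42 in these 3 fits.

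In CKO-Sham against fl/fl-Sham, 0 of the 10 genes were called (0.891% of all tested genes) and 0 passed an adjusted p under 0.05 (0.00713% of all tested genes). The median log2 fold change was -0.23, against 0.00 for all tested genes. The largest in size was that of Cfd, -1.84 (SE 0.84), described above. Fabp4 had 0.39 (SE 0.24, adjusted p = 0.9997 in edgeR) and Car3 -0.39 (SE 0.54, adjusted p = 0.9997), and neither was called. Without fl/fl-MI 1 the value of Car3 was -0.40 with an SE of 0.15 (adjusted p = 0.511 in edgeR), under the 2-fold limit. The difference of the genotype effect between MI and sham was tested as an interaction, in which 0 of the 10 were called (4.1% of all tested genes) and 0 passed an adjusted p under 0.05 (0% of all tested genes). In the sham comparison and the interaction alike, 0 of the 10 had an unadjusted p under 0.05 in edgeR, DESeq2 or limma. The smallest p of the interaction was that of Lep, at a log2 value of -0.87 (SE 0.47, adjusted p = 0.647 in edgeR). The median of the interaction was -0.16 with all libraries. It was 0.73 without fl/fl-MI 2, and 3 genes were called, all positive, namely Retn (1.34), Car3 (1.14) and Cfd (2.26), against 5.93% of all tested genes. Without fl/fl-MI 1 it was -0.60, and Cidec (-1.09) and Plin1 (-1.32) were called, against 12.4% of all tested genes.

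In fl/fl-MI against fl/fl-Sham, 2 of the 10 genes were called, both lower, against 15.4% of all tested genes in either direction, and the same 2 were the count at an adjusted p under 0.05 (18.5% of all tested genes). In CKO-MI against CKO-Sham the counts were also 2 and 2 (17% and 24.7% of all tested genes), and over both genotypes 2 and 2 (16% and 40.4% of all tested genes). The count of 2 in 10 was thus near these shares, and below the last of them. The medians of the log2 fold changes were 0.25 in fl/fl, -0.11 in CKO and 0.14 over both, against 0.05, 0.01 and 0.03 for all tested genes. In fl/fl, 5 were called without fl/fl-MI 1 and 4 without fl/fl-MI 2, against 18.8% of all tested genes in either fit, and the median was 0.90 and -0.99. Without fl/fl-MI 1, Plin4 (1.16), Plin1 (1.13) and Cfd (1.80) were called higher beside Lipe and Fabp4, which stayed lower. Without fl/fl-MI 2, Retn (-1.09) and Car3 (-1.05) joined Lipe and Fabp4 as lower in log2 fold change. Over both genotypes without fl/fl-MI 2, Lipe and Fabp4 were the 2 called (17.9% of all tested genes) and the median was -0.45. Over both genotypes, Cfd had 1.13 (SE 0.58, adjusted p = 0.159 in edgeR) with all libraries and 0.11 without fl/fl-MI 2.

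**Figure D5:**
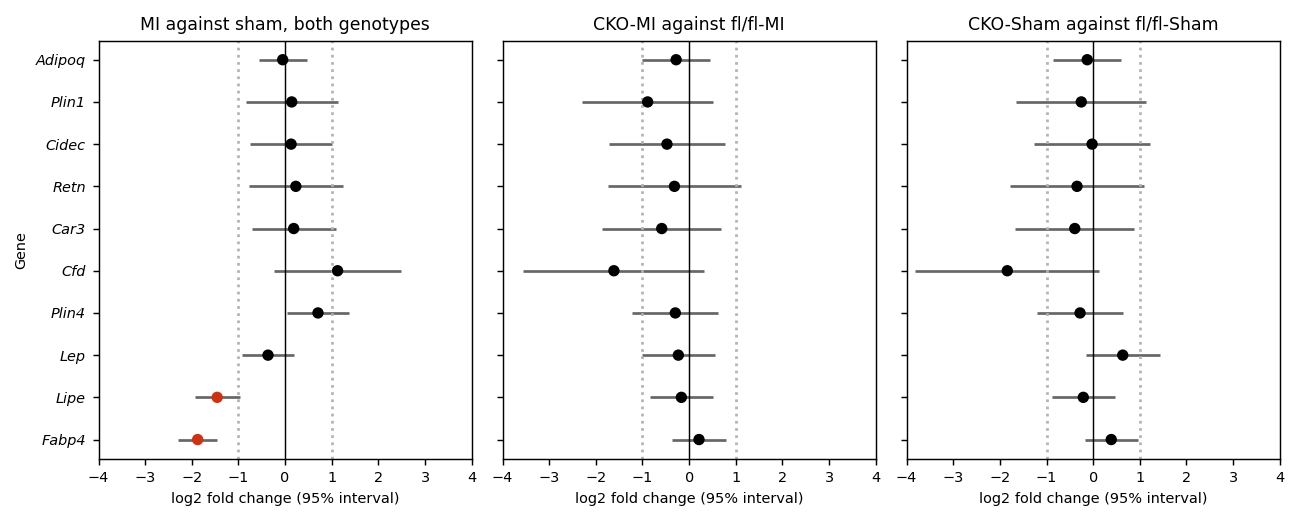
Log2 fold changes (horizontal axes) with 95% intervals for the 10 genes in MI against sham over both genotypes, CKO-MI against fl/fl-MI and CKO-Sham against fl/fl-Sham; dotted lines mark 2-fold and red points are called. Only Lipe (-1.46) and Fabp4 (-1.87) in MI against sham are called.

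Other genes of fat cells were followed as lists. Of all tested genes, 15.4% were called in fl/fl-MI against fl/fl-Sham, 17% in CKO-MI against CKO-Sham and 16% over both genotypes. In CKO-MI against fl/fl-MI 3.21% were called, in CKO-Sham against fl/fl-Sham 0.891% and in the interaction 4.1%. These shares, in either direction, stand beside the counts of each list below. Of 10 genes of adipocyte identity and regulation, 9 were tested and 1, Pparg, was called lower in both genotypes. Over both genotypes 2 were higher at an adjusted p under 0.05 in edgeR, Cebpa (log2 fold change 0.66) and Gpd1 (0.77). Lower at that limit were 3, namely Pparg, Aoc3 (-0.46) and Sncg (-0.83). The median of the list was 0.05, against 0.03 for all tested genes. Pparg, the nuclear receptor that drives adipocyte differentiation and is also used in endothelium, had 31.7 to 39.3 CPM in sham and 7.29 to 13.0 CPM after MI, a log2 fold change of -1.82 over both genotypes (SE 0.19, adjusted p = 0.00106 in edgeR). Gpd1, which makes the glycerol backbone of triglyceride, was called higher in CKO-MI against CKO-Sham, at 1.15 (SE 0.29). Slc7a10, an amino acid transporter of white adipocytes, was called lower in CKO-MI against fl/fl-MI, at -1.57 (SE 0.51), where its level was 3.29 CPM in fl/fl-MI 2 and 1.22 CPM in fl/fl-MI 1. Its value was -0.68 and not called without fl/fl-MI 2. Between the sham groups 0 of the list were called.

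Of 14 genes of fat synthesis, 13 were tested, and over both genotypes 1 was called higher and 1 lower (16% of all tested genes). Thrsp, a regulator of lipogenesis, had 31.5 to 46.4 CPM in sham and 7.78 to 25.6 CPM after MI, a log2 fold change of -1.60 (SE 0.34). Lpin1, a phosphatase of triglyceride synthesis that also acts in muscle, was called higher over both genotypes, at 1.27 (SE 0.23), and in CKO. Its value over both was 0.95, under the 2-fold limit, without fl/fl-MI 2. Mlxipl, which encodes the glucose-responsive factor ChREBP, was called lower in fl/fl, at -1.44 (SE 0.27). Of 10 lipid droplet and lipase genes that cardiomyocytes also use, all 10 were tested. Over both genotypes 1 was called lower (16% of all tested genes). This was Mgll, the lipase that acts after Lipe on monoacylglycerol, with 194 to 250.3 CPM in sham and 64.3 to 108 CPM after MI, a log2 fold change of -1.40 (SE 0.13). Cd36, a fatty acid transporter, was called lower in fl/fl, at -1.23 (SE 0.19), and G0s2, an inhibitor of the first lipase, in CKO, at -1.07 (SE 0.25). In either genotype comparison 0 genes of these 2 lists were called with all libraries. Without fl/fl-MI 2, Mlxipl (1.16), Plin5 (1.24) and Dgat2 (1.28, named after its values were seen) were called higher in CKO-MI against fl/fl-MI. In the interaction Mlxipl (1.18, SE 0.37) and the perilipins Plin3 (1.18, SE 0.24) and Plin5 (1.20, SE 0.34) were called higher. Plin3 was at 80.4 and 77.3 CPM for fl/fl-Sham, 50.8 and 49.3 for CKO-Sham, 62.1 and 47.2 for fl/fl-MI, and 72.7 and 84.6 for CKO-MI, so its CKO libraries were the lower ones in sham and the higher ones after MI. None of the 3 passed an adjusted p under 0.05. Without fl/fl-MI 1, Mlxipl (0.83) and Plin5 (0.95) were under the 2-fold limit, as was Plin3 by a small margin without fl/fl-MI 2.

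Of 5 receptors for adiponectin, leptin and insulin, 1 was called lower over both genotypes (16% of all tested genes). Lepr, the leptin receptor, was at 6.05 to 7.18 CPM in sham, 2.42 and 5.70 for fl/fl-MI, and 1.48 and 1.83 for CKO-MI. The log2 fold changes of Lepr were -2.01 in CKO-MI against CKO-Sham (SE 0.41) and -1.29 in CKO-MI against fl/fl-MI (SE 0.41), both called, and Lepr was also called in the interaction, at -1.43 (SE 0.57). The 3 values were -2.01, -0.55 and -0.69 without fl/fl-MI 2, and only the first was called. Insr, the insulin receptor, was called higher in CKO, at 1.06 (SE 0.17), and Cdh13, which binds adiponectin at the cell surface, in fl/fl, at a 2.01-fold higher level (SE 0.30 on the log2 scale), though not without fl/fl-MI 2 (log2 fold change 0.57).

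The kind of fat and the neighbouring tissues were read from marker lists (over both genotypes, 16% of all tested genes were called). Of 7 brown adipocyte markers 2 were tested, Cidea and Dio2. Ucp1, which defines brown fat, was at 0 in 6 libraries and at most 0.0545 CPM in the others. Cidea was present in every library, at 9.98 to 23.3 CPM, and was not called over both genotypes (log2 fold change -0.07, SE 0.21). Dio2, the deiodinase on that list, was called higher after MI over both genotypes, at 3.01 (SE 0.84), at 38.1 and 3.68 CPM for fl/fl-MI, and 34.4 and 104 for CKO-MI. Of 6 mesothelial markers 4 were called higher after MI over both genotypes, namely Upk3b, Lrrn4, Upk1b and Msln. Of 6 atrial markers Nppa, also a stress hormone of ventricular muscle, was called higher in both genotypes. Bmp10 was called over both genotypes, at 3.24, on 1 library: its value was -0.27 in CKO-MI against CKO-Sham with all libraries and -0.53 over both genotypes without fl/fl-MI 2. Of 5 macrophage markers 1 was called higher (Adgre1), of 4 fibroblast markers 2 were called higher (Col1a1 and Dpt), and of 8 cardiomyocyte markers 2 were called lower (Myl2 and Tnni3), all over both genotypes. The cardiomyocyte markers did not move one way: Ryr2 (0.89), Actn2 (0.69) and Actc1 (0.93) were higher over both genotypes at an adjusted p under 0.05 in edgeR, short of 2-fold, and Ryr2 (1.25) and Actc1 (1.07) were called higher in CKO. Myl2 was just under the 2-fold limit without fl/fl-MI 2, and without fl/fl-MI 1 Tnni3 was at -0.96. Of 7 skeletal muscle markers 2 were tested and 1, Mylpf, was called lower over both genotypes, at -1.59, though not without fl/fl-MI 2 (-1.41). Of 4 thymus markers 2 were in the table and 0 were tested, and Rag1 was at 0 in 7 libraries.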

How the data were processed

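Poly(A) RNA of 8 myocardium libraries was sequenced as paired-end reads, and groups follow the labels. The authors deposited, for each gene and transcript, a whole-number count without normalization and an FPKM value scaled to length and library size. Per the submitters' processing notes, cutadapt 1.9 and FastQC were used, while the tools for alignment and counting, and the annotation, are not given in the sources used here. Low counts pile up at multiples of 4, so 73821747 to 88117573 counts per library may stand for 18455437 to 22029393 read pairs, and this number limits the precision of low genes.

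Tests were run on the genes whose mean FPKM reached 0.5, with edgeR 4.0.16 (R 4.3.3, quasi-likelihood test, TMM normalization), all 8 libraries in 1 fit with a mean per group, and p-values were adjusted by Benjamini-Hochberg over all 14028 genes. A call needed an unadjusted p below 0.05 together with a 2-fold change. MI against sham was the mean of both genotypes. Exact permutation tests used log2(CPM + 1). Scripts were tested on simulated data. The alternatives were DESeq2 1.42.0, limma 3.58.1 on log2(FPKM + 1) and log2(FPKM + 0.1), RLE normalization, TMM without mitochondrially encoded genes, no filter, a filter at a mean FPKM of 5, counts divided by 4, a replicate block, only the 4 libraries compared, and each library left out.

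All 10 adipocyte genes were named, as were list genes called in a comparison with all libraries (up to 5 a list) and the 10 genes most like the adipocyte genes. Lists were adipocyte identity, fat synthesis, lipid droplet and lipase genes, hormone receptors, and markers of brown fat, mesothelium, skeletal muscle, endothelium, macrophages, fibroblasts, cardiomyocytes, atrium and thymus. The adipocyte genes and lists were chosen with earlier results of these data known. Python 3.11.15, pandas 2.3.3 and SciPy 1.17.1 were used for tables. Promoters came from RefSeq (GRCm38.p6). Replicate libraries of a group were not identical in their counts. Columns of the authors' own comparisons were not used.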

Additional observations from a re-analysis of the deposited data

Results flagged for a closer look

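In groups of 4 libraries, a library was singled out when its gap to the nearest of the others took up an unusually large share of the whole range (Dixon's test), which chance alone does in about 1 of 20 groups. The shares of the range are on the scale of log2(CPM + 1), while the levels beside them are in CPM. For Lep among the 4 MI libraries, CKO-MI 2 (4.80 CPM) was below the other 3 (6.21 to 6.50 CPM) by 0.849 of the range. For Retn among the 4 sham libraries, CKO-Sham 1 (2.13 CPM) was below the other 3 (3.49 to 3.63 CPM) by 0.919 of the range. For Fabp4 among the 4 MI libraries, CKO-MI 1 (379 CPM) was above the other 3 (269.7 to 282 CPM) by 0.870 of the range.

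The log2 difference of Lep between libraries labelled CKO and fl/fl had opposite signs in sham and after MI. With each library left out in turn, it ran from 0.24 to 1.18 in sham and from -0.42 to -0.02 after MI. Every CKO-Sham library was above both fl/fl-Sham libraries, and every CKO-MI library was below both fl/fl-MI libraries. The test of the interaction gave a log2 value of -0.865 (SE 0.47, adjusted p = 0.647 in edgeR), which did not pass.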

How the results depend on the processing

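Which fl/fl-MI library was used changed the results most, and the cause was not tested. With each library left out in turn, the number of the 10 genes called was 0 to 4 for CKO-MI against fl/fl-MI, 0 to 1 for CKO-Sham against fl/fl-Sham, 2 to 5 in fl/fl-MI against fl/fl-Sham, 2 to 3 in CKO-MI against CKO-Sham and over both genotypes, and 0 to 3 in the interaction. The share of all tested genes called in these fits was 2.57% to 11.5%, 0.827% to 1.41%, 12.3% to 18.8%, 13.0% to 18.5% in CKO and 14.5% to 17.9% over both genotypes, and 2.3% to 12.4%. The median log2 fold change was -0.86 to 0.42 in CKO-MI against fl/fl-MI, -0.99 to 0.90 in fl/fl-MI against fl/fl-Sham, -0.45 to 0.46 in MI against sham over both genotypes and -0.60 to 0.73 in the interaction. In CKO-MI against fl/fl-MI the sign changed for Adipoq (-0.66 to 0.28), Plin1 (-1.58 to 0.53), Plin4 (-0.75 to 0.41), Cfd (-2.44 to 0.42), Cidec (-1.11 to 0.74), Retn (-0.98 to 0.99), Car3 (-1.25 to 0.74), Fabp4 (-0.043 to 0.47) and Lipe (-0.56 to 0.40). Over both genotypes it changed for Adipoq (-0.33 to 0.13), Plin1 (-0.57 to 0.47), Cidec (-0.48 to 0.44), Retn (-0.42 to 0.55) and Car3 (-0.48 to 0.51). Where such a fit left 1 library in a group, its spread was taken from the remaining groups.

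Without a filter 1 gene, Cfd, was called for CKO-MI against fl/fl-MI, and 1, also Cfd, for CKO-Sham against fl/fl-Sham (3.56% and 1.68% of all genes). Fitting only the 4 libraries compared likewise called 1 gene in sham, Cfd (1.68% of all tested genes). The replicate block called 1 gene in sham (Cfd), 0 for CKO-MI against fl/fl-MI and 2 over both genotypes. The numbers pair no samples by label, and deviations of same-numbered libraries correlated at -0.21 to 0.06 across genes. A crossed pairing of the MI libraries, chosen after seeing the data, called 0 genes. On the FPKM scales the median of all genes in MI against sham over both genotypes moved from 0.03 to 0.41 or more, Adipoq over both genotypes turned to 0.43 with limma on log2(FPKM + 1) and 0.46 on log2(FPKM + 0.1), and Lep to 0.14 and 0.22. Without a filter Adipoq was at 0.0091. Fabp4 stayed called over both genotypes under every alternative run, and Lipe under all but the 2 FPKM scales, where it was at -0.85 and -0.92. With 3 against 4 libraries the exact permutation test cannot give the p of 4 against 4. The lowest gene, Retn, had 1.67 to 6.61 CPM, where counting error is largest.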
